A study of Glycine max with 24 samples.

Results

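Levels of 8 seed maturation and dehydrin genes were followed in soybean (Glycine max) leaves with and without soybean aphids, insects that feed on phloem sap. The genes are PM3, PM9, PM29, PM30, PM35, MP2, MAT1 and SLE2, taken as the probe sets whose only gene symbol in the platform's annotation is one of these names. They have 11 probe sets, each a set of short probes summarised to 1 value, among 6031 genes named by the 8677 probe sets that carry 1 gene. PM30 has 3 probe sets, PM3 has 2, and the other genes have 1 each. Both PM3 and PM30 have a probe set with the suffix _s_at, whose probes are shared by more than 1 transcript, so its signal may include close relatives of the gene.

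Leaves of the aphid-resistant cultivar LD05-16060 and the aphid-susceptible cultivar SD01-76R were sampled 7 days or 1 day after aphids were placed on the third trifoliate, together with uninfested plants of the same age. The 2 cultivars, 2 days and 2 treatments gave 8 groups with 3 arrays each: resistant day 7 infested and uninfested, resistant day 1 infested and uninfested, susceptible day 7 infested and uninfested, and susceptible day 1 infested and uninfested. The number of aphids applied per plant was the same in both cultivars and on both days. All plants, controls included, grew netted in a growth chamber, and aphids were removed before the leaves were taken. The cultivars differ throughout their genomes and not only in aphid resistance, the labels do not say if leaves of several plants were pooled, and they do not name the resistance gene.

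Late embryogenesis abundant (LEA) proteins are hydrophilic proteins that accumulate in seeds as they mature and dry, and they are known for protecting other proteins and membranes against loss of water. Their genes are controlled in seeds by abscisic acid and by seed-specific regulators, and many can also be switched on in vegetative tissue by drought, cold or salt. Dehydrins, to which MAT1 belongs by its synonyms, are 1 family of LEA proteins, and SLE2 is listed under the synonym Em, the name of another. The remaining symbols stand for seed maturation proteins, PM for short, and MP2 is also listed as PM2.

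The 8 genes were chosen by measured values of these arrays: PM30, MAT1, PM35 and PM3 stood out where infested susceptible leaves were set against uninfested ones on day 7, and PM3 also in the difference between cultivars in that effect. The rule has no threshold. For these 8 genes, every comparison that uses susceptible day 7 arrays is therefore given below as a description with no test, and 9 comparisons without them were tested. Those arrays still entered the normalization and the shared spread behind the SEs and p-values of these tests. PM3 in the aphid effect of resistant day 7 leaves, an arm of the comparison that chose it, is also a description. Genes outside the 8 were read in the tested comparisons and in the susceptible day 7 aphid effect. Their lists were chosen with earlier results of these data known, so list counts and p-values are not independent of these arrays. Values are log2 intensities after quantile normalization. On that scale the 5th percentile of all values was 5.28, the median 7.61 and the 95th percentile 11.16. The table gives no measure of background, so levels near 5.28 are not shown to be above background, and differences from such levels are not exact sizes. Levels of different probe sets are not compared with each other.

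Array medians ran from 7.00 to 8.03 before normalization, and arrays correlated with each other at 0.858 to 0.991. The 3 uninfested susceptible day 1 arrays had the highest scores along the leading principal component, which held 39.6% of the variance. Their scores were 69.1 to 109.4, against -66.0 to 66.2 for the other arrays. The nearest of those, infested resistant day 1 replicate 2 at 66.2, lay close to them. The leaf identity of the samples was checked on LOC547819, a light-harvesting chlorophyll protein gene, whose 2 probe sets averaged 12.70 to 14.51 on the 24 arrays. Genes for seed storage proteins (glycinins, conglycinins and a sucrose-binding protein, 12 probe sets of 8 genes) averaged 5.29 to 5.57 per array in every group. The storage protein list was added after the annotation had been seen.

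In the susceptible cultivar on day 7, MAT1, PM30, PM35, PM3, PM9, PM29 and MP2 were all higher with aphids than without, while SLE2 was not. MAT1, the dehydrin gene, had 12.40, 10.32 and 13.21 in infested leaves, against 6.48, 8.31 and 6.79 in uninfested ones. PM30, a LEA protein gene, had 11.12, 9.22 and 12.64 by its first probe set (suffix _at) in infested leaves, against 5.68, 6.42 and 5.67 in uninfested ones. PM35 had 11.49, 10.32 and 11.46 in infested leaves, against 7.72, 8.20 and 7.40 in uninfested ones. For each of these genes the lowest infested array lay above the highest uninfested one, and infested replicate 2 was the lowest of its group.

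**Figure D1:**
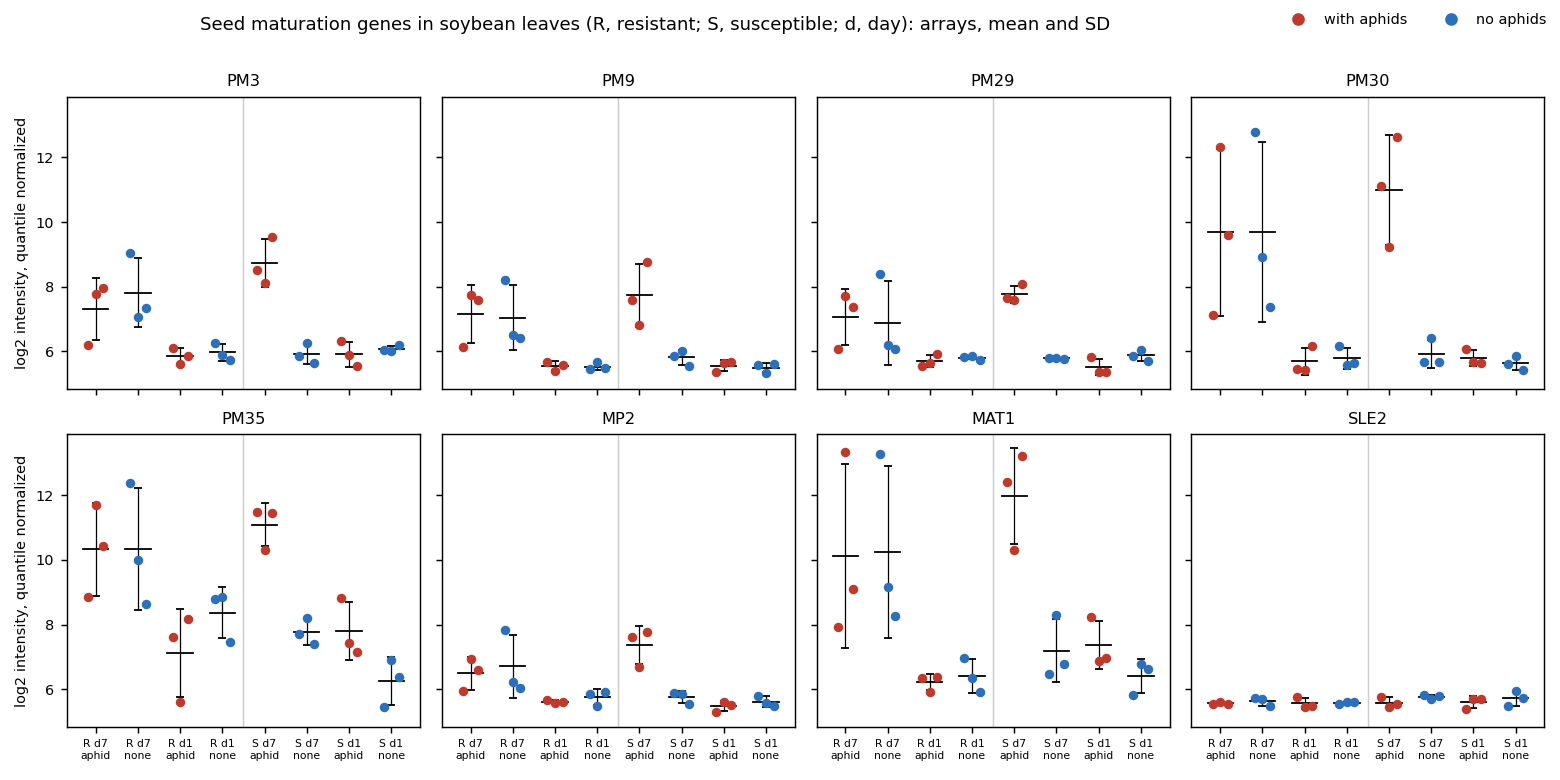
Log2 intensity (vertical axis, quantile normalized) of each of the 8 genes on the 24 arrays, by the probe set of highest mean for PM3 and PM30, with groups along the horizontal axis. Each point is an array, the horizontal bar is the group mean and the vertical bar 1 SD. PM3, PM9, PM29, PM30, PM35, MP2 and MAT1 are highest in infested susceptible leaves on day 7 and next highest in both resistant day 7 groups, and SLE2 lies between 5.40 and 5.95 on all arrays.

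PM3 had 7.98, 7.83 and 8.96 by its first probe set (suffix _at) in infested susceptible day 7 leaves, against 5.40, 5.77 and 5.52 in uninfested ones. Its second probe set (suffix _s_at) had 8.53, 8.13 and 9.55 in infested leaves, against 5.87, 6.25 and 5.64 in uninfested ones. Both probe sets of PM3 therefore separated the treatments by more than 1 log2 unit between the nearest arrays. PM9, a LEA protein gene, had 7.60, 6.83 and 8.78 in infested leaves, against 5.87, 6.02 and 5.56 in uninfested ones. PM29 had 7.64, 7.58 and 8.08 in infested leaves, against 5.81, 5.79 and 5.77 in uninfested ones. MP2 had 7.63, 6.69 and 7.77 in infested leaves, against 5.90, 5.85 and 5.56 in uninfested ones. None of these genes had overlapping groups, and all of their uninfested arrays lay in the lowest part of the scale.

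The infested-minus-uninfested differences in that comparison were 5.07 ± 1.11 (SE) and 4.65 ± 1.05 for the first and second probe sets of PM30 and 4.79 ± 1.16 for MAT1. PM35 differed by 3.32 ± 0.83, and PM3 by 2.69 ± 0.37 and 2.82 ± 0.46. Smaller differences were seen for PM29 (1.98 ± 0.43), PM9 (1.92 ± 0.45) and MP2 (1.59 ± 0.35). With 1 value per gene, the median over the 8 genes was 2.37 and over all 37593 probe sets -0.03. In 9 of the 11 every infested array lay above every uninfested one, against 11.3% of the whole array. These values chose the genes and are given as a description.

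SLE2 and 1 probe set of PM30 did not share that pattern. SLE2 had 5.77, 5.45 and 5.55 in infested susceptible day 7 leaves, against 5.81, 5.70 and 5.79 in uninfested ones, a difference of -0.17 ± 0.13. Its group means over the whole study spanned 0.19 log2 units, and in no pair of groups next to each other in level did the arrays separate. The third PM30 probe set had 7.43, 6.73 and 7.65 in infested leaves, against 6.78, 6.88 and 6.49 in uninfested ones, with overlap, and a difference of 0.55 ± 0.32. The 3 probe sets of PM30 thus disagreed in size, and 2 of them gave differences above 4.

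Among resistant plants on day 7, the levels of the same 7 genes differed widely between arrays of 1 treatment. PM30 had 7.14, 12.31 and 9.60 by its first probe set in infested resistant leaves, against 12.78, 8.92 and 7.37 in uninfested ones. MAT1 had 7.92, 13.35 and 9.10 in infested resistant leaves, against 13.27, 9.17 and 8.28 in uninfested ones. PM35 had 8.85, 11.71 and 10.42 in infested resistant leaves, against 12.38, 10 and 8.63 in uninfested ones. The 2 treatments overlapped, and each group held 1 array near the top of the scale and 1 several log2 units lower.

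PM3 showed the same mixture, with 6.02, 7.44 and 7.48 by its first probe set in infested resistant day 7 leaves, against 8.57, 7.17 and 7.06 in uninfested ones. PM9 had 6.13, 7.76 and 7.59 in infested resistant leaves, against 8.22, 6.52 and 6.41 in uninfested ones. PM29 had 6.07, 7.70 and 7.39 in infested resistant leaves, against 8.39, 6.20 and 6.08 in uninfested ones. In all 3 genes the highest array was uninfested replicate 1 and the lowest infested replicate 1. MP2 had 5.95, 6.93 and 6.59 in infested resistant leaves, against 7.84, 6.23 and 6.05 in uninfested ones. SLE2 had 5.55, 5.61 and 5.55 in infested resistant leaves, against 5.73, 5.69 and 5.48 in uninfested ones, so it stayed at its low level there too.

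The test of the aphid effect in resistant leaves on day 7 called none of the 9 probe sets other than those of PM3 (limma, Benjamini-Hochberg adjusted over all 37593 probe sets, threshold 0.05), and none had an unadjusted p under 0.05. Over all probe sets that test called 1 (0.00266%), and 2.85% had an unadjusted p under 0.05. The infested-minus-uninfested difference was -0.01 ± 1.11 for PM30 (first probe set), with a 95% interval of -2.32 to 2.30. It was -0.12 ± 1.16 for MAT1 (interval -2.53 to 2.30) and -0.01 ± 0.83 for PM35 (interval -1.74 to 1.72). PM3 differed by -0.62 ± 0.37 and -0.50 ± 0.46 by its first and second probe sets, given with no test. The intervals of PM30 and MAT1 leave room for changes of over 2 log2 units in either direction. Those of PM9 (-0.84 to 1.05), PM29 (-0.74 to 1.06) and MP2 (-0.95 to 0.51) are narrower. Each SE and interval rests on 1 spread per probe set shared by all 8 groups. PM30 had SDs of 2.59 and 2.79 in infested and uninfested resistant day 7 leaves, against 0.42 and 0.33 on day 1. For these genes the intervals are therefore narrower than the spread of the resistant day 7 arrays alone would give.

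That comparison turned on replicate 1 of each treatment. PM30 differed by 1.27 without infested replicate 1, by 1.54 without uninfested replicate 1 and by 2.81 without both, as an alternative chosen after seeing the data. MAT1 differed by 0.98, 1.40 and 2.5 in the same 3 settings, PM35 by 0.73, 1.01 and 1.75, and PM3 (first probe set) by -0.14, -0.14 and 0.35. Without both arrays 1 member probe set was called, that of PM29 (adjusted p = 0.0264), and it was the only call among all probe sets in that setting. The direction of the aphid effect in resistant day 7 leaves was therefore not settled for these genes by 3 arrays a group. For PM30 and MAT1, infested replicate 1 lay nearer the low uninfested arrays and uninfested replicate 1 nearer the high infested one. Genes outside the members differed in this. The list of other numbered seed maturation genes, described below, averaged 6.49, 7.26 and 6.52 in infested resistant day 7 leaves. It averaged 7.34, 6.55 and 6.54 in uninfested ones, with replicate 1 placed as in PM30 and MAT1. The kinase genes SPK-3 and SPK-4 had groups of small spread. SPK-3 (brighter probe set) averaged 9.77 ± 0.08 (SD) in infested resistant day 7 leaves, against 10.26 ± 0.08 in uninfested ones. SPK-4 averaged 9.44 ± 0.13, against 10.19 ± 0.29. These examples outside the members were picked after their values were seen, and genes of each kind were not counted. All arrays were used as labelled. Whether the 2 replicate 1 arrays carry each other's labels was not tested. An exchange would alter every resistant day 7 value given here, the day differences included.

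**Figure D2:**
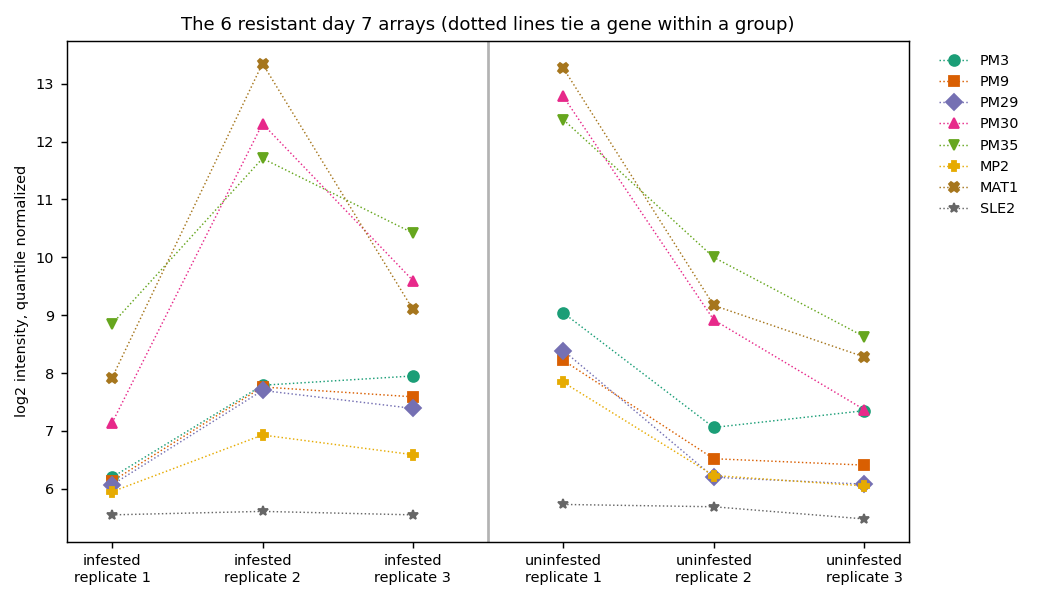
Log2 intensity (vertical axis, quantile normalized) of the 8 genes on the 6 resistant day 7 arrays (horizontal axis), infested left and uninfested right; dotted lines only join points of 1 gene within a group. For 7 genes uninfested replicate 1 and infested replicate 2 are at or near the top and infested replicate 1 is at or near the bottom (MAT1 13.27, 13.35 and 7.92), and SLE2 stays between 5.48 and 5.73.

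The 7 genes varied together from array to array. Of their 9 probe sets, leaving aside the third of PM30, uninfested replicate 1 was the highest of the 6 resistant day 7 arrays in 8 and infested replicate 1 the lowest in 8. Infested replicate 2 was the second highest in 6 of the 9. Averaged over these 9 probe sets, of which PM3 and PM30 have 2 each, the level was 6.76, 9.61 and 8.33 in infested resistant day 7 leaves. It was 10.27, 7.71 and 7.12 in uninfested ones. In susceptible leaves on the same day the average was 9.42, 8.38 and 10.25 with aphids, against 6.0, 6.52 and 5.91 without. No day 1 array exceeded 6.31.

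Over the 24 arrays the 36 pairs of these 9 probe sets correlated with r from 0.849 to 0.998 (median 0.943), and with group means removed r was 0.643 to 0.995. The values of a pair share arrays, labelling reactions and normalization, and all high arrays come from 3 groups. SLE2 correlated with the other 10 probe sets at -0.11 to 0.13. Among resistant day 7 arrays, uninfested replicate 1 and infested replicate 2 had the highest average of these 9 probe sets. They also had the highest 3' minus 5' signal of an array control, that of a sucrose-binding protein. Infested replicate 3, next in that average, had the lowest. The 3' minus 5' signal of the sucrose-binding protein control was 0.75, 1.91 and 0.46 in infested resistant day 7 arrays, against 2.28, 0.60 and 0.92 in uninfested ones. The mean 3' minus 5' signal over the control transcripts, a measure of RNA integrity and labelling, was 0.82, 0.98 and 0.86 there, against 1.00, 0.77 and 1.03. On uninfested susceptible day 1 arrays the sucrose-binding protein control had 3.43, 1.69 and 2.05, where the 9 probe sets averaged 5.66, 5.97 and 5.77. The part of the 3' minus 5' signal in the array-to-array pattern was not tested.

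The day comparison within the resistant cultivar took its differences from resistant arrays only. Its SEs and p-values rest on a spread shared by all arrays, the susceptible day 7 arrays included, and normalization was shared too. In uninfested resistant leaves the 7 genes other than SLE2 varied more on day 7 than on day 1, which a shared spread does not follow. In uninfested resistant leaves both probe sets of PM3 were higher on day 7 than on day 1 and passed the test, as 2 of the 11 probe sets. All 11 differences were above 0, SLE2 included at 0.05 ± 0.13, against 52.6% of all probe sets. PM3 by its first probe set had 8.57, 7.17 and 7.06 on day 7, against 5.72, 5.57 and 5.52 on day 1, a difference of 2.0 ± 0.37 (limma, Benjamini-Hochberg adjusted p = 0.00512). By its second probe set it had 9.04, 7.06 and 7.35 on day 7, against 6.27, 5.90 and 5.75 on day 1, a difference of 1.84 ± 0.46 (adjusted p = 0.0275). Every day 7 array of PM3 lay above every day 1 array. Of all probe sets 3.91% were called in this comparison, 2% higher on day 7. PM3 had been noticed in a comparison that includes the resistant day 7 arrays, so this call is not fully independent of how the gene was chosen.

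The difference of PM30 was larger in the same comparison, and so was its SE. By its first probe set it had 12.78, 8.92 and 7.37 on day 7, against 6.17, 5.57 and 5.65 on day 1, a difference of 3.90 ± 1.11 that missed the threshold (limma, adjusted p = 0.0534). MAT1 had 13.27, 9.17 and 8.28 on day 7, against 6.98, 6.36 and 5.92 on day 1, a difference of 3.82 ± 1.16 (adjusted p = 0.0691). PM9 differed by 1.52 ± 0.45 (adjusted p = 0.0647). The day 7 and day 1 arrays did not overlap in any of these genes. The differences of PM35 (1.97 ± 0.83), PM29 (1.08 ± 0.43) and MP2 (0.95 ± 0.35) had adjusted p-values of 0.211, 0.183 and 0.141, and SLE2 differed by 0.05 ± 0.13. In all, 9 of the 11 probe sets had an unadjusted p under 0.05 (17.4% of all probe sets), and in 8 of the 11 the day 7 arrays all lay above the day 1 arrays (12.7% of all).

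**Figure D3:**
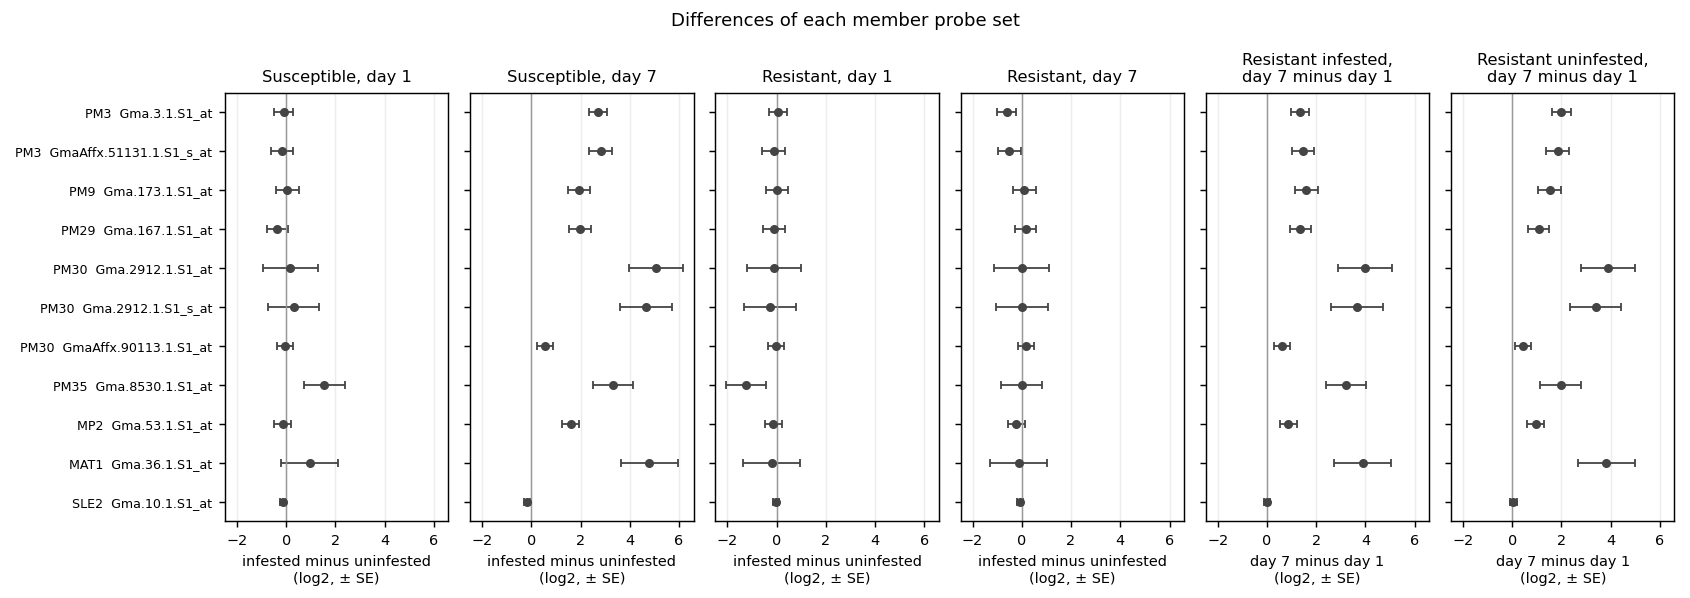
Log2 differences (horizontal axis) of the 11 probe sets (rows) in 6 comparisons, with bars of 1 SE: infested minus uninfested in the first 4 panels and day 7 minus day 1 within the resistant cultivar in the last 2. Differences from the susceptible day 7 arrays reach 5.07 for PM30 and are a description, those with aphids in resistant leaves on day 7 lie between -0.62 and 0.16, and those between days in resistant leaves reach 3.99 and 3.90.

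Infested resistant leaves differed between the days by about as much, in a comparison that was added after seeing the data. PM30 had 7.14, 12.31 and 9.60 on day 7, against 5.47, 5.43 and 6.18 on day 1, a difference of 3.99 ± 1.11 (limma, adjusted p = 0.0823). MAT1 differed by 3.90 ± 1.16 (adjusted p = 0.102), and PM35 by 3.21 ± 0.83 (adjusted p = 0.0643), the smallest adjusted p of the 11. PM35 had 8.85, 11.71 and 10.42 on day 7, against 7.61, 5.60 and 8.16 on day 1, without overlap. None of the 11 probe sets was called (0.803% of all were), while 9 had an unadjusted p under 0.05 (16.7% of all). In 9 of the 11, all but SLE2 and the third PM30 probe set, the day 7 arrays all lay above the day 1 arrays (8.92% of all). The difference between infested and uninfested resistant leaves in this change over days was 0.09 ± 1.57 for PM30 (interval -3.18 to 3.36) and 1.23 ± 1.17 for PM35 (interval -1.22 to 3.68). Leaving aside PM3, none of the other 9 probe sets was called there, none had an unadjusted p under 0.05 (2.75% of all), and 0% of all probe sets were called.

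Single arrays moved these counts. In uninfested resistant leaves 6 member probe sets were called without day 7 replicate 3, and 1 without day 7 replicate 1 or without any of the 3 day 1 replicates. The second PM3 probe set lost its call in those 4 settings (adjusted p = 0.172 without day 7 replicate 1), while the first was called in all 17 alternatives. These alternatives reuse resistant day 7 arrays that took part in choosing PM3, so they do not remove that dependence. In infested resistant leaves 8 were called without day 7 replicate 1 and 1 without day 1 replicate 3. Leaf age, days under the net and day of sampling changed together and cannot be told apart.

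On day 1 most of the genes were low in every group, while PM35 was above the array-wide median of 7.61 in part of the arrays. PM3, PM9, PM29, PM30 by its first probe set, MP2 and SLE2 ran from 5.31 to 6.31 over the 12 arrays, close to the 5th percentile, and the third PM30 probe set from 6.49 to 6.83. PM35 had 8.81, 7.43 and 7.15 in infested susceptible day 1 leaves, against 5.45, 6.92 and 6.38 in uninfested ones, a difference of 1.55 ± 0.83 (limma, adjusted p = 0.255). MAT1 had 8.24, 6.89 and 6.98 in infested susceptible day 1 leaves, against 5.81, 6.77 and 6.63 in uninfested ones, a difference of 0.96 ± 1.16 (adjusted p = 0.647). Both genes lay above their uninfested arrays without overlap, as did the second PM30 probe set at 5.51, 5.42 and 5.54 against 5.19, 5.21 and 5.16. That made 3 of the 11 probe sets, where 15.2% of all did so. None was called or had an unadjusted p under 0.05, against 5.01% and 24.9% of all probe sets.

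With aphids for 1 day, PM35 had 7.61, 5.60 and 8.16 in resistant leaves, against 8.79, 8.85 and 7.45 in uninfested ones, a difference of -1.24 ± 0.83 (limma, adjusted p = 0.748). MAT1 had 6.36, 5.93 and 6.39 in the infested resistant leaves, against 6.98, 6.36 and 5.92 in the uninfested ones. Both genes overlapped between treatments. None of the 11 was called or had an unadjusted p under 0.05 in this comparison, where 0% and 7.62% of all probe sets did. The difference between cultivars in the day 1 aphid effect, resistant minus susceptible, was -2.79 ± 1.17 for PM35 (adjusted p = 0.174), the 1 member with an unadjusted p under 0.05. None was called there, against 0.886% of all probe sets, and 21.8% of all had an unadjusted p under 0.05.

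In uninfested leaves on day 1, PM35 had 8.79, 8.85 and 7.45 in the resistant cultivar, against 5.45, 6.92 and 6.38 in the susceptible one. The difference of 2.11 ± 0.83 (limma, adjusted p = 0.0808) did not pass, although the arrays did not overlap. With the second PM30 probe set, 2 of the 11 lay higher without overlap (21% of all). No member was called, while 18.7% of all probe sets were. PM35 was the 1 member with an unadjusted p under 0.05, against 32.8% of all. The uninfested susceptible day 1 arrays are those with the highest scores along the leading principal component. Their mean 3' minus 5' signal over the control transcripts was also the highest of all groups, at 1.31 against 0.83 in uninfested resistant day 1 leaves. The part of RNA integrity in the differences that use these arrays was not tested. Among infested day 1 leaves PM35 differed by -0.68 ± 0.83 between the resistant and the susceptible cultivar, and MAT1 by -1.14 ± 1.16, with MAT1 as the 1 probe set of the 11 whose arrays did not overlap and were lower (4.35% of all). None of the 11 was called or had an unadjusted p under 0.05 in that comparison, which was added after seeing the data (0.138% and 5.64% of all).

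Setting the cultivars side by side on day 7 uses the arrays that chose the genes, and the values are given without a test. In uninfested leaves, PM30 had 12.78, 8.92 and 7.37 in the resistant cultivar, against 5.68, 6.42 and 5.67 in the susceptible one, a difference of 3.77 ± 1.11. MAT1 differed by 3.05 ± 1.16, PM35 by 2.56 ± 0.83, and PM3 by 2.04 ± 0.37 and 1.90 ± 0.46. For 8 of the 11 probe sets every uninfested resistant array lay above every uninfested susceptible one (12.3% of all), and MAT1 was among the 3 that overlapped. In infested leaves all 11 differences between the resistant and the susceptible cultivar were below 0, from -1.86 for MAT1 to -0.02. Of these 11, both PM3 probe sets had groups that did not overlap (4.8% of all), with differences of -1.28 ± 0.37 and -1.42 ± 0.46. The aphid effect on day 7, resistant minus susceptible, differed by -5.08 ± 1.57 for PM30, -4.91 ± 1.64 for MAT1, -3.33 ± 1.17 for PM35 and -3.31 ± 0.52 for PM3 (first probe set).

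Within the susceptible cultivar, infested leaves of day 7 and day 1 differed by 5.19 for PM30 (first probe set), 4.61 for MAT1 and 3.29 for PM35, and 10 of the 11 probe sets were higher on day 7 without overlap (14.2% of all). PM30 had 11.12, 9.22 and 12.64 on day 7 there, against 6.08, 5.67 and 5.64 on day 1. In uninfested susceptible leaves PM35 had 7.72, 8.20 and 7.40 on day 7, against 5.45, 6.92 and 6.38 on day 1, a difference of 1.52 ± 0.83. The median difference over the 8 genes was 0.21 there, and 2 of the 11 probe sets were higher on day 7 without overlap (17% of all).

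Ordered by group mean, infested susceptible day 7 leaves came first in all 10 probe sets other than that of SLE2. The next places went to infested and uninfested resistant day 7 leaves, whose order varied between genes and whose arrays overlapped in every case. In PM3, PM9, PM29, MP2 and the first and second probe sets of PM30 these 3 groups lay wholly above the one that followed them in the order, and the 5 lower groups overlapped with their neighbours. The margin was narrow in PM29 (6.07 against 6.05) and MP2 (5.95 against 5.90). In the second PM3 probe set the lowest infested resistant day 7 array (6.20) lay below arrays of groups further down. The highest of those was 6.31, in infested susceptible day 1 leaves. In PM35 uninfested resistant leaves overlapped between the days, with 8.63 in day 7 replicate 3, against 8.79 and 8.85 in day 1 replicates 1 and 2. In MAT1 the arrays overlapped with the next group too, through infested susceptible day 1 replicate 1 at 8.24. Infested susceptible day 7 leaves overlapped with the group that came after them in all 7 genes. In bulk leaf tissue, fewer cells that use a gene and less of its RNA per cell cannot be told apart.

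Other numbered seed maturation genes on the array, 23 genes with 28 probe sets from a list added after the annotation had been seen, included some with the same order of groups. Infested susceptible and both resistant day 7 groups averaged at least 0.5 log2 units above each of the other 5 groups in 7 of the 28 probe sets (25%), those of PM16, PM12, PM39, PGMPM10 and PM41, against 1.52% of all probe sets. That count was chosen after the values were seen and is a description. None of the 28 was called for the aphid effect in susceptible leaves on day 7 (limma, smallest adjusted p = 0.102), and the median difference was 0.26, against -0.03 over all probe sets. PM16 averaged 7.76 ± 0.96 (SD, n = 3) by its s_at probe set in infested susceptible day 7 leaves, against 5.51 ± 0.10 in uninfested ones (a gene also found by likeness below, so no test is given). In resistant day 7 leaves it averaged 6.94 ± 1.66 with aphids, against 7.09 ± 2.0 without. PM41, singled out after its values were seen, averaged 8.32 ± 1.31 in infested susceptible day 7 leaves, against 5.78 ± 0.26 in uninfested ones. It averaged 7.64 ± 2.45 in infested resistant day 7 leaves, against 7.66 ± 2.19 in uninfested ones. Neither gene separated the treatments in resistant leaves. Between days, only TENA_E was called in uninfested resistant leaves, at 7.87 ± 0.39 on day 7, against 7.12 ± 0.09 on day 1 (adjusted p = 0.0139). That was 1 of the 28 probe sets, where 3.91% of all were called.

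**Figure D4:**
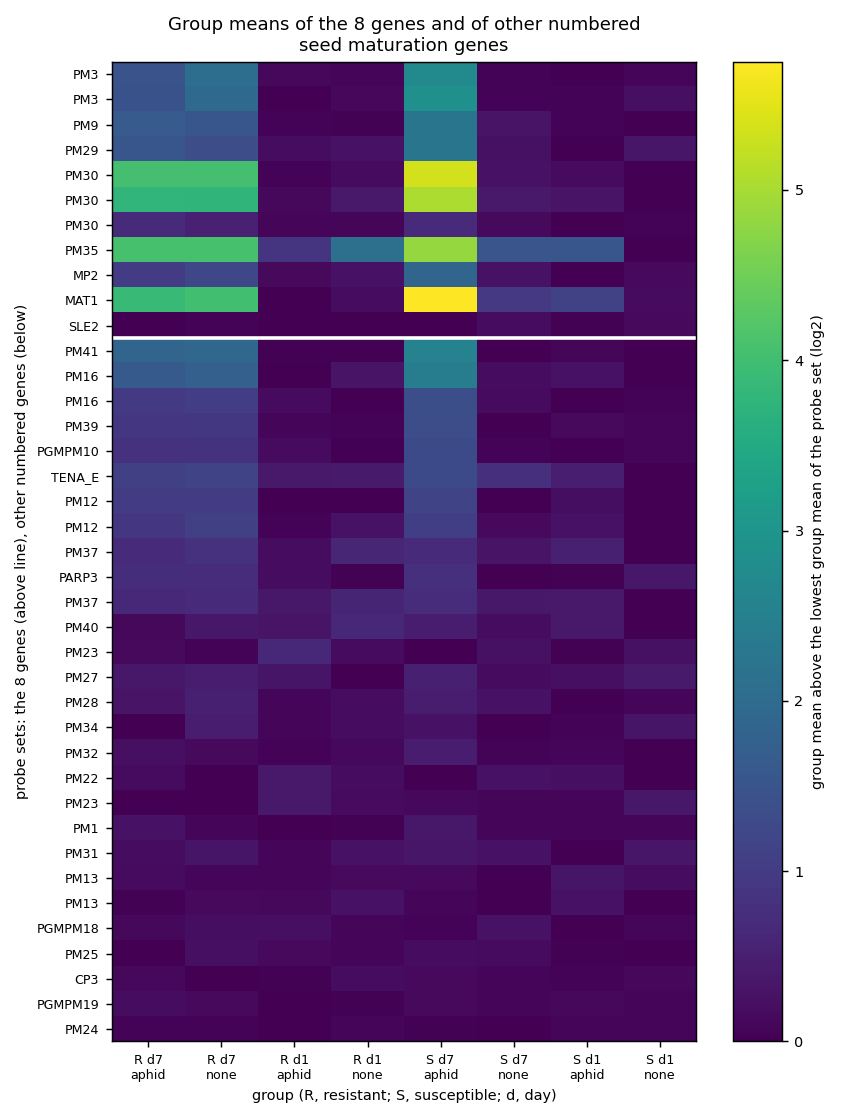
Group means of the 11 probe sets of the 8 genes (above the white line) and of the 28 probe sets of other numbered seed maturation genes (below), as log2 units above the lowest group mean of each probe set (colour), with the 8 groups along the horizontal axis. The 3 day 7 columns other than uninfested susceptible leaves stand out for MAT1, PM30 and PM35 and, among the other genes, for PM41 and PM16 (8.32 and 7.76 in infested susceptible leaves), while other genes such as PM39 and PM12 show smaller steps.

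Seed storage and seed inhibitor genes gave different counts. None of the 12 storage protein probe sets was called in any of the 9 tested comparisons or in the susceptible day 7 aphid effect, and the group averages of the list lay between 5.32 and 5.44. The list of seed reserve genes (9 probe sets of 6 genes) held 3 calls, all higher on day 7 in uninfested resistant leaves. Of all probe sets, 2% were called higher in that comparison. KTI-3, a Kunitz trypsin inhibitor gene, averaged 11.83 ± 0.50 by its _s_at probe set on day 7, against 8.85 ± 0.98 on day 1 (difference 2.98 ± 0.54, SE, adjusted p = 0.00427). KTI-2, another of these inhibitors, averaged 12.16 ± 0.47 on day 7, against 10.15 ± 0.73 on day 1 (adjusted p = 0.0214). In the susceptible day 7 aphid effect no seed reserve probe set was called, and the smallest adjusted p was 0.149.

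Genes of abscisic acid signalling were called with aphids in susceptible day 7 leaves and between days in uninfested resistant leaves. This list was chosen with earlier results of these data known, so its counts and p-values are not independent of them. SPK-4, a protein kinase gene of the family that responds to abscisic acid and osmotic stress, averaged 10.15 ± 0.29 in infested susceptible day 7 leaves, against 8.74 ± 0.39 in uninfested ones (difference 1.41 ± 0.19, SE, limma, adjusted p = 0.000804). In uninfested resistant leaves SPK-4 averaged 10.19 ± 0.29 on day 7, against 8.66 ± 0.14 on day 1 (adjusted p = 0.00054). SPK-3, a related kinase gene, and BZIP1, a transcription factor gene, were called in both comparisons too. Of the 7 probe sets of 5 genes on this list, 3 rose with aphids in susceptible leaves on day 7 (1.94% of all probe sets did) and 4 were higher on day 7 in uninfested resistant leaves (2% of all). Between days in infested resistant leaves 2 were called (0.803% of all), and 2 were between cultivars in uninfested day 1 leaves (18.7% of all). The resistant day 7 spread of SPK-4 (SD 0.13 with aphids and 0.29 without) stood beside one of 2.59 and 2.79 for PM30.

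The cold and drought list was likewise chosen with earlier results of these data known, so its counts are not independent of them. Of 14 cold and drought probe sets of 10 genes, 10 rose with aphids in susceptible leaves on day 7 (1.94% of all probe sets did) and 3 on day 1 (5.01% of all were called). In uninfested day 1 leaves 5 were higher in the resistant than in the susceptible cultivar (18.7% of all were called). Between days in resistant leaves none was called without aphids (smallest adjusted p = 0.0603; 3.91% of all) and 1 with them (0.803% of all). SCOF-1, a cold-inducible zinc finger gene, averaged 9.45 ± 0.39 in infested resistant day 7 leaves, against 7.78 ± 0.44 in uninfested ones, a difference of 1.68 ± 0.45 that did not pass (limma, adjusted p = 0.9999). In uninfested resistant leaves SCOF-1 had 7.78 ± 0.44 on day 7, against 9.07 ± 0.82 on day 1 (limma, adjusted p = 0.118). PM3 was called higher on day 7 there, while PM30 and MAT1 missed the threshold. The median difference of the 14 cold and drought probe sets in that comparison was 0.41, against 0.02 over all probe sets. The lower level of SCOF-1 on day 7 therefore does not stand for its list. Among heat shock genes 1 of 18 probe sets was called in each of the resistant day comparisons, that of HSP22.3. Of all probe sets 3.91% were called there without aphids and 0.803% with them. Of 2 further LEA genes none was called in any of the tested comparisons.

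Leaf and phloem genes, from lists also chosen with earlier results of these data known, moved with some of these comparisons. LOC547819 fell to 13.21 ± 0.34 by its _x_at probe set in infested susceptible day 7 leaves, against 14.34 ± 0.17 in uninfested ones (limma, adjusted p = 0.00556). It fell to 13.07 ± 0.29 in uninfested resistant leaves on day 7, against 14.25 ± 0.19 on day 1 (adjusted p = 0.00362). The 11 phloem probe sets averaged 5.84 ± 0.06 per array in infested susceptible day 7 leaves, against 6.30 ± 0.20 in uninfested ones, with none called. Between cultivars on day 1, 8 of the 11 phloem probe sets were lower in uninfested resistant leaves, and 1 of 4 root and nodule probe sets was called there, against 18.7% of all probe sets. The part of these shifts in the levels of PM30, MAT1 and PM3 was not tested.

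The genes outside the 8 whose levels ran most like theirs were sought among 1123 genes with an informative name, by Pearson correlation over the 24 arrays with 1 probe set per gene. For MAT1 these were PM16 (r = 0.959), PM12 (0.944) and MYB173 (0.940), and for PM30 PM16 (0.955), LOC100170711 (0.952) and PM12 (0.940). LOC100170711 is a NAC transcription factor gene listed as NAC17, and it also came first for PM29 (0.932) and MP2 (0.937). PM3 ran closest to PEPC4 (0.926), a phosphoenolpyruvate carboxylase gene, then CYSTATIN (0.901), a protease inhibitor gene, and MYB173 (0.893). PM35 ran closest to LOC547684 (0.947), listed as the beta-amylase BMY1, then BBI-1 (0.925), a Bowman-Birk inhibitor gene, and BZIP71 (0.922). PM9 ran closest to MYB173 (0.917), LOC100170711 (0.907) and PM39 (0.899). These correlations rest on the same 24 arrays and mostly on the 3 high groups.

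Because these genes were found through the levels of the 8 genes, their differences are given with no test. BZIP71, a transcription factor gene, averaged 11.82 ± 0.34 in infested susceptible day 7 leaves, against 9.93 ± 0.41 in uninfested ones. In uninfested resistant leaves it averaged 11.66 ± 0.53 on day 7, against 9.52 ± 0.17 on day 1. In infested resistant leaves it averaged 11.08 ± 0.51 on day 7, against 9.36 ± 0.45 on day 1. LOC100170711 averaged 7.77 ± 0.57 in infested susceptible day 7 leaves, against 5.61 ± 0.34 in uninfested ones, and had SDs of 1.29 and 1.86 in infested and uninfested resistant day 7 leaves.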

How the data were processed

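Biotin-labelled total RNA from the third trifoliate leaf was hybridised to 1-colour Affymetrix soybean arrays, per the labels. The authors deposited 1 table of log2 intensities for 24 arrays and 37653 probe sets, of which 37593 are soybean probe sets and 60 are controls. The submitters' processing notes name RMA, GCRMA and limma, without role, order or version. On the linear scale 99.61% of the deposited values were whole numbers within 0.01. The method that turned probes into probe set values is not given in these sources.

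Soybean probe sets were quantile normalized, because array medians differed, and the 8 group means were fitted with limma 3.58.1 in R 4.3.3 (prior degrees of freedom 3.65, residual 16). Benjamini-Hochberg adjustment covered all 37593 probe sets within each comparison, at 0.05. Nothing says that replicates were separate plants, so p-values reflect the spread of the samples as given, which may be technical. Errors after ± are SE for differences and SD for means, with n = 3. The fit was tested on simulated data.

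Probe sets were named by the platform annotation: 8677 had 1 gene, 370 several and 28546 none. The RefSeq table for assembly Glycine_max_v4.0 held all 8 genes and was used for names only.

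The members and lists were chosen with earlier results of these data known. All members are named. Other genes are named when a probe set passed in a tested comparison or in the susceptible day 7 aphid effect (up to 3 per list and comparison, by smallest p), or when among the 3 closest to a member whose group means span at least 1 log2 unit. Lists (other LEA, abscisic acid, cold and drought, heat shock, leaf, seed reserve, root and nodule, phloem) were matched on symbols and synonyms; lists of numbered maturation and of storage protein genes were added.

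Replicates share numbers across groups. Deviations of same-numbered arrays from their group means correlated at -0.404 to 0.457 over the 12 pairs of groups compared. In 11 of them not every number exceeded 0.1, so the numbers were not taken as pairs. In the other, infested susceptible leaves between days (0.187 to 0.304), all did; that comparison is described with no test.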

Additional observations from a re-analysis of the deposited data

How the results depend on the processing

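Alternatives were no scaling or median centring, a normexp correction with offset 50, a filter that kept 18796 bright probe sets (mean over 7.62), inclusion of the controls, array weights, a trended robust variance, a replicate block, the groups of a comparison alone, the 3' minus 5' signal as a covariate, leaving out the 6 susceptible day 7 arrays or any 1 array and, added after seeing the data, leaving out replicate 1 of both resistant day 7 groups. The median over the 8 genes in the susceptible day 7 aphid effect (2.37) ran from 1.96 to 4.05 (4.05 where only PM35 and MAT1 were bright enough to stay) and from 2.10 to 2.70 without 1 array. The 2 member probe sets called between days in uninfested resistant leaves became 4 with no scaling, 6 with array weights, 1 with those groups alone, 1 without both replicates 1, and 0 with the bright probe sets only, where PM3 was not fitted; leaving out 1 array gave 1 to 6. In infested resistant leaves, none was called in the first place, against 1 with the bright probe sets only, 3 with array weights and 10 without both replicates 1; leaving out 1 array gave 0 to 8. The aphid effect in resistant leaves on day 7 had 0 calls, and 1 without both replicates 1. The cultivar difference in uninfested day 1 leaves had 0 calls, and 1 with no scaling, with array weights and with its groups alone. The cause of these shifts was not tested. The other member counts stayed at 0 in every alternative run. The numbers did not pair the arrays in any tested comparison fitted between 2 groups; with the replicate block, 2 member probe sets were called between days in uninfested resistant leaves and 0 in the other tested comparisons, the same counts as without it. Of single differences, 505 kept direction and side of the threshold or moved within their SE, 35 newly passed, 6 no longer passed (all of the second PM3 probe set between days in uninfested resistant leaves) and 21 moved further with a change of sign, mostly for the aphid effect in resistant day 7 leaves. Dim levels limit the 7 genes: below about 6 their order carries no weight.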
